A study of Macaca mulatta with 8 samples.

Results

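The genes of inhibin, activin, follistatin and anti-Müllerian hormone were followed in rhesus macaque oocytes at metaphase II. Members were all probe sets whose only platform gene symbol was INHBA, INHA, FST, AMH or AMHR2. These were 8 probe sets for 5 genes, among 12993 named genes and 52766 non-control probe sets, and all 8 were bright enough for the filter on dim probe sets. INHBA had 2 probe sets (MmuSTS.701.1.S1_at and MmugDNA.21962.1.S1_at, here probe sets 1 and 2, in order of brightness). FST had 3 (MmugDNA.26912.1.S1_at, MmugDNA.16891.1.S1_at and MmugDNA.26915.1.S1_at, probe sets 1, 2 and 3). INHA (MmuSTS.95.1.S1_at), AMH (MmuSTS.1953.1.S1_at) and AMHR2 (MmugDNA.19556.1.S1_at) had 1 each.

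Oocytes that had matured in the animal were hybridised on 4 arrays, and oocytes that had matured in culture on 4 others. Each array carried twice-amplified RNA of a pool of 4 metaphase II oocytes, the stage at which the egg awaits fertilization. The labels give no age, animal, stimulation or culture medium, and do not say whether surrounding cells were removed. Arrays within a group are described as biological replicates, so SDs measure the spread between these pools. The p-values and SEs of the limma fit also borrow from other probe sets of similar brightness. They therefore do not measure the spread of a gene between pools alone. Values are MAS5 signals, the brightness of a probe set on a linear scale, and levels of different probe sets are not compared.

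Inhibins and activins are dimers of the transforming growth factor beta family, known in the ovary as products of granulosa cells. An inhibin joins the alpha subunit, encoded by INHA, to a beta subunit such as that encoded by INHBA, whereas an activin joins beta subunits to each other. Activins bind type II and then type I receptors and act through SMAD2 and SMAD3 with SMAD4. Inhibins compete for the type II receptors with betaglycan as co-receptor, and follistatin, encoded by FST, binds activin and keeps it from its receptors. Anti-Müllerian hormone (AMH), a granulosa product of growing follicles, signals through its own type II receptor AMHR2.

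INHBA was the member with the largest difference between the groups, with more signal after maturation in culture. The 5 genes were selected on an earlier comparison of these same signals between in vitro and in vivo arrays, in which INHBA stood out, so their values in it are given as a description, without a test. Both INHBA probe sets were about 8 to 9 times as bright in vitro. INHA was 1.50 times as bright in vitro, with groups that touched. FST, AMH and AMHR2 had mean log2 values that were lower in vitro by at most 0.53, and all of these groups overlapped.

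At probe set 1, the INHBA signal was 252, 157, 176 and 75.9 on in vivo arrays 1 to 4. It was 2529, 1366, 744 and 1295 on in vitro arrays 1 to 4. The dimmest in vitro array was thus well above the brightest in vivo array. The group means were 165 ± 72.4 in vivo and 1483 ± 751 in vitro (mean ± SD over 4 arrays per group), and the mean log2(signal + 8.2) differed by 3.08, an 8.46-fold difference. The pseudocount of 8.2 makes such a fold slightly smaller than the ratio of the signals, most of all for dim probe sets.

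Probe set 2 of INHBA gave the same picture at a lower brightness. Its signal was 94.4, 57.7, 58.5 and 21.4 on the in vivo arrays and 865, 489, 277 and 729 on the in vitro arrays. These groups did not overlap either, and the log2 difference was 3.18, or 9.09-fold. In vivo replicate 4 was not above the background of its array, which was 27.0 (taken as the 95th percentile of bacterial and tag controls that were not spiked in).

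The INHBA probe sets also ranked the in vivo arrays alike. In vivo replicate 1 was the brightest and in vivo replicate 4 the dimmest at both, and among the in vitro arrays replicate 1 was the brightest and replicate 3 the dimmest at both. Between the brightest and dimmest array of a group the signal differed 3.32-fold in vivo and 3.40-fold in vitro at probe set 1, and 4.41-fold and 3.12-fold at probe set 2. The spread inside a group was therefore wide, with an SD of 0.68 to 0.75 on the log2 scale, and smaller than the difference between the groups. With each array left out in turn the log2 difference lay between 2.77 and 3.37 at probe set 1 and between 2.84 and 3.50 at probe set 2.

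**Figure D1:**
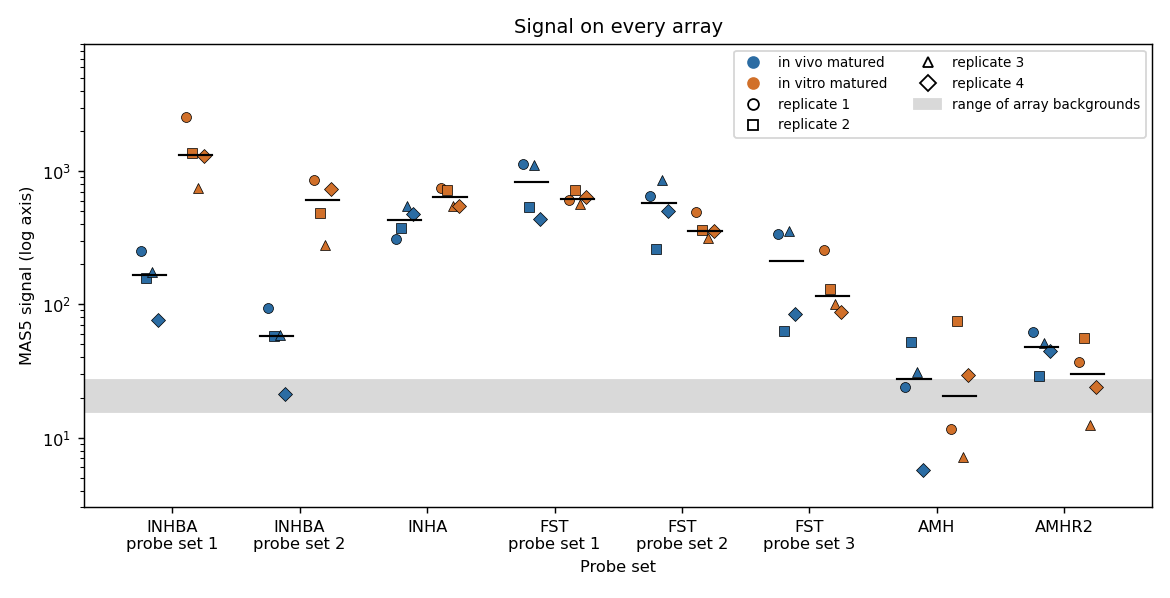
MAS5 signal on a log axis for each of the 8 member probe sets, with a point for each array, a shape for each replicate number and a bar at the group median. Only the INHBA probe sets have all in vitro arrays above all in vivo arrays. AMH and AMHR2 reach into the grey band that spans the backgrounds of the 8 arrays (15.7 to 27.0). So does INHBA probe set 2 on in vivo replicate 4, at 21.4.

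Of the 8 member probe sets, 2 had all in vitro arrays above all in vivo arrays, both of them INHBA. Over all 26378 tested probe sets this held for 3.18%, a figure given only for scale, since the contrast entered the choice of members. By log2 difference, INHBA probe sets 2 and 1 stood at positions 2 and 5 from the top of all tested probe sets. The median absolute log2 difference of all tested probe sets was 0.26.

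INHA, the gene of the inhibin alpha subunit, had a signal of 312, 377, 547 and 477 on the in vivo arrays. It had 749, 721, 544 and 550 on the in vitro arrays. In vitro arrays 1, 2 and 4 lay above every in vivo array, and in vitro array 3 lay just under the brightest in vivo one. The means were 428 ± 104 and 641 ± 109 (SD, n = 4 each), with a log2 difference of 0.59 that ran from 0.45 to 0.72 with each array left out. The in vivo array that was brightest for INHBA, replicate 1, was the dimmest for INHA.

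The subunit genes thus differed by unequal amounts. From in vivo to in vitro, the log2 ratio of INHBA to INHA at their brightest probe sets shifted by 2.49, with an SD of 0.92 in vivo and 0.54 in vitro, and the groups did not overlap. The log2 ratio of INHBA to FST shifted by 3.31 (SD 0.37 in vivo and 0.70 in vitro), again without overlap. The ratio of INHA to FST shifted by 0.81, and its groups overlapped. INHBA stood out in the comparison that selected the genes, so a large shift against a member with a small difference follows from that choice. The shifts are a description of unequal change between probe sets on the same array and say nothing of the proportions of the transcripts.

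FST was bright on every array and varied mostly within the in vivo group. At probe set 1 its signal was 1122, 540, 1107 and 436 in vivo, and 604, 719, 569 and 635 in vitro. All in vitro values fell between the lower and the upper in vivo arrays. The means were 802 ± 364 and 632 ± 64.1 (SD, n = 4 each), with a log2 difference of -0.22.

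FST probe set 2 read 655, 258, 862 and 504 in vivo and 491, 362, 313 and 353 in vitro, with a log2 difference of -0.47. Probe set 3 read 338, 62.9, 358 and 84.2 in vivo and 256, 130, 99.8 and 87.0 in vitro, with a log2 difference of -0.29. In vivo arrays 1 and 3 were the brightest at all 3 probe sets, and the in vitro arrays lay inside the in vivo range at each. The difference at probe set 3 turned to 0.05 without in vivo replicate 1 and to 0.08 without in vivo replicate 3, whereas those of probe sets 1 and 2 stayed below 0 with any array left out.

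The SD of the FST log2 values was 0.69, 0.73 and 1.24 in vivo at probe sets 1 to 3, and 0.14, 0.27 and 0.65 in vitro. The in vivo group was also the more variable one over the whole array, where the median SD was 0.43 in vivo and 0.32 in vitro and 66.4% of tested probe sets had the larger SD in vivo. The 3 probe sets report on 1 gene in the same pools and are not independent.

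Ratios of 3' to 5' signal of control transcripts, a sign of RNA or amplification quality, varied between the in vivo arrays. The ratio of 3' to 5' signal of the control transcript EEF1A1, which rises when amplification does not reach the 5' end, was 2.70 and 2.72 on in vivo arrays 1 and 3. It was 7.70 and 12.8 on in vivo arrays 2 and 4, and between 3.59 and 4.91 on the in vitro arrays. The beta-actin ratio was 75.3, 150, 51.2 and 108 on in vivo arrays 1 to 4 and 51.1 to 108 in vitro, so in vivo arrays 1 and 3 were the lowest of their group but not of all arrays. The GAPDH ratio, at 24.6, 49.4, 20.6 and 24.8 in vivo and 27.3 to 47.3 in vitro, did not part in vivo array 1 from array 4. Arrays 1 and 3 were the brightest in vivo arrays at 6 of the 8 member probe sets, which were those of INHBA, FST and AMHR2. They were so at 25.6% of all tested probe sets. The part of these ratios in the levels was not tested.

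**Figure D2:**
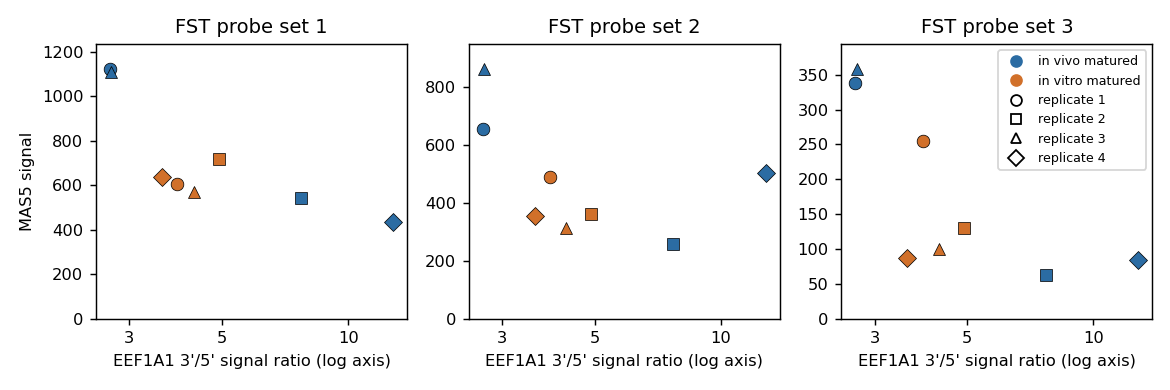
FST signal at its 3 probe sets against the ratio of 3' to 5' signal of the EEF1A1 control (log axis), with a point for each of the 8 arrays. In vivo arrays 1 and 3, with ratios of 2.70 and 2.72, have the brightest FST signal in each panel, while the in vitro arrays lie at ratios from 3.59 to 4.91.

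AMH was near background. Its signal was 24.0, 51.8, 30.9 and 5.70 on the in vivo arrays and 11.6, 75, 7.20 and 29.6 on the in vitro arrays. It was above background on 3 in vivo and 2 in vitro arrays. The groups overlapped almost entirely, and the log2 difference of -0.03 ran from -0.50 without in vitro replicate 2 to 0.31 without in vitro replicate 3. The SD of the AMH log2 values, 0.89 in vivo and 1.09 in vitro, was far larger than this difference.

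AMHR2, the receptor gene of AMH, read 62.4, 29.1, 51.3 and 44.3 in vivo and 36.7, 56.3, 12.4 and 23.8 in vitro. It was above background on all 4 in vivo arrays and on 2 in vitro arrays, with in vitro array 4 at its background of 23.8. In vitro arrays 3 and 4 lay below the whole in vivo group, while in vitro array 2 was brighter than all but the brightest in vivo array. The means were 46.8 ± 13.9 and 32.3 ± 18.8 (SD, n = 4 each). The log2 difference of -0.53 ran from -0.79 to -0.24 with each array left out.

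In vitro replicate 3 was the dimmest array of its group at 7 of the 8 member probe sets, the exception being FST probe set 3. It was the dimmest at 22.3% of all tested probe sets. Without it the INHBA difference was 3.37 at probe set 1 and 3.50 at probe set 2, the highest values that leaving out an array gave.

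**Figure D3:**
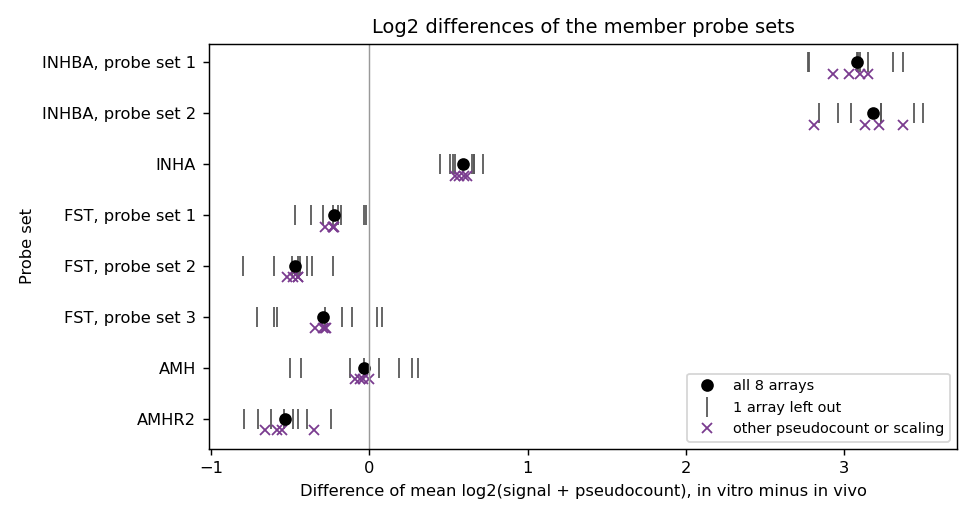
Difference of the mean log2(signal + pseudocount), in vitro minus in vivo, for each member probe set, with all 8 arrays (filled points), with 1 array left out (ticks) and with another pseudocount or scaling (crosses). The INHBA values stay at or above 2.77, and INHA stays above 0, while AMH and FST probe set 3 have ticks on both sides of 0.

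Genes that act with the members were taken from 6 lists of 116 genes, of which 85 were named on the array and 62 were bright enough to be tested. These were compared in the limma fit over all 26378 tested probe sets, with each gene read at its brightest tested probe set. None of the 62 passed a limma adjusted p of 0.05 (0 higher and 0 lower), against 0.251% of 9560 named genes tested. At an unadjusted p under 0.05 there were 8, with 7 higher and 1 lower, while 12.0% of the 9560 genes reached that level. The median log2 difference was 0.12 over the 62 genes and -0.02 over the 9560. It was above 0 at 38 of the 62 genes and at 47.9% of the 9560. Groups did not overlap at 7 of the 62, where 7.38% of the 9560 genes showed this. They were BMP15, ACVR1C, TGFBR3, FSTL4, GREM1 and ID3, higher in vitro, and TGFBR2, lower in vitro and named here after its value was seen.

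Among other ligands of the family, 0 of 6 tested genes passed, and all 6 had a log2 difference above 0. A further 8 were named on the array but too dim to be tested. BMP4, a bone morphogenetic protein gene, had a mean of 499 ± 245 in vivo against 993 ± 360 in vitro, with a log2 difference of 1.04 ± 0.32 SE and a limma adjusted p of 0.285. Its in vitro arrays read 1499, 977, 667 and 828, and in vivo array 4, at 832, lay among them. BMP2, of the same group, had 1.32 ± 0.72 from signals close to background in vivo. BMP15, an oocyte growth factor, was at 946 ± 59.7 and 1165 ± 110, with 0.30 ± 0.16. INHBB, the other main activin beta subunit gene, was above background on 0 of the 8 arrays at its brighter probe set, at 4.38 ± 1.44 in vivo and 4.97 ± 2.10 in vitro. No difference in INHBB was therefore measurable.

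Of 13 tested receptors and co-receptors, 0 passed, with 9 log2 differences above 0 and 4 below. The activin type II receptor gene ACVR2A read 220, 317, 222 and 276 in vivo and 155, 161, 175 and 224 in vitro, so that only in vitro array 4 reached the in vivo range (log2 difference -0.51 ± 0.22 SE, limma adjusted p = 0.439). The other activin type II receptor gene, ACVR2B, had 0.49 ± 0.27. Its in vitro arrays lay within 1286 and 1334, while the in vivo arrays ran from 590 to 1450. The type I receptor gene ACVR1B averaged 86.9 ± 48.9 in vivo against 41.8 ± 14.2 in vitro, with -0.81 ± 0.39. As for FST, its in vivo signal was high on arrays 1 and 3 (125 and 133) and low on arrays 2 and 4 (41.7 and 47.7).

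ACVR1C, the gene of the type I receptor ALK7, read 429, 316, 274 and 289 in vivo and 440, 448, 439 and 505 in vitro, with 0.50 ± 0.20 SE and a limma adjusted p of 0.408. TGFBR3, which encodes betaglycan, the co-receptor of inhibin, read 381, 504, 397 and 438 in vivo and 508, 646, 591 and 524 in vitro. Its groups did not overlap, with 0.39 ± 0.19 SE and a limma adjusted p of 0.494, and its other tested probe sets had 0.84 and 0.41. ACVR1, a type I receptor gene used by AMH and bone morphogenetic proteins, was at 545 ± 102 and 547 ± 88.4, with 0.01 ± 0.20. BMPR1A, another type I receptor gene of AMH signalling, was not among the genes named on the array.

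Of 10 tested genes for binding proteins, decoys and proconvertases, 0 passed, 5 having a log2 difference above 0 and 5 below. FSTL3, a relative of follistatin that also binds activin, was at 337 ± 138 and 389 ± 90.2, with 0.28 ± 0.31. FSTL4 read 1689, 1847, 712 and 1898 in vivo and 2962, 2749, 3026 and 2323 in vitro, which leaves a gap between the groups (0.94 ± 0.27 SE, limma adjusted p = 0.245). Its dimmer tested probe set had 0.32. FSTL1, a secreted glycoprotein gene, had 0.61 ± 0.27, with 0.25 at its other tested probe set. GREM1, which encodes a bone morphogenetic protein antagonist, had 0.93 ± 0.42 from a low signal of 19.4 ± 9.58 in vivo.

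Of 12 tested SMAD proteins and partners, 0 passed. SMAD2 had a mean signal of 5661 ± 1545 in vivo and 5262 ± 375 in vitro, with a log2 difference of -0.07 ± 0.18 SE. SMAD3 had -0.16 ± 0.19, and SMAD5, which serves AMH and bone morphogenetic proteins, had 0.14 ± 0.21. SMAD4, the partner of all of these, had -0.78 ± 0.47 at 39.8 ± 20.1 in vivo, a dim probe set that was above background on 6 of the 8 arrays. PPM1A, a phosphatase of SMAD proteins, had 0.30 ± 0.17, and ZFYVE9, which encodes a SMAD anchor, had -0.34 ± 0.20. Further tested probe sets of SMAD2, SMAD5, PPM1A and ZFYVE9 had log2 differences of both signs, from -0.56 to 0.70. SMAD1 was not among the genes named on the array.

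Of 8 tested SMAD target genes, 0 passed, and ID3 came nearest. ID3 encodes an inhibitor of helix-loop-helix factors that is induced by bone morphogenetic protein signalling. Its signal was 155, 47.6, 89.3 and 60.5 on the in vivo arrays and 268, 265, 237 and 267 on the in vitro arrays. The in vitro arrays lay close together and above every in vivo array. The log2 difference was 1.60 ± 0.30 SE, with a limma adjusted p of 0.0521. Over 18 alternative settings that p ran from 0.00406 to 0.219, and it was under 0.05 in 7 of them. Another tested ID3 probe set had 0.64 (limma adjusted p = 0.724), and the third one was too dim to be tested. ID4 had 0.76 ± 0.31, with 0.12 and 0.82 at its other tested probe sets, and JUNB had 0.37 ± 0.30.

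Of 13 tested genes that regulate these genes in granulosa cells, 0 passed. CREB1, the transcription factor that answers cyclic AMP, was at 79.2 ± 17.6 and 53.1 ± 17.0, with -0.53 ± 0.30. WT1 had 0.53 ± 0.40 and the nuclear receptor gene NR5A2 had -0.57 ± 0.47. The gonadotropin receptor genes FSHR and LHCGR and the factor FOXL2 were not among the genes named on the array.

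**Figure D4:**
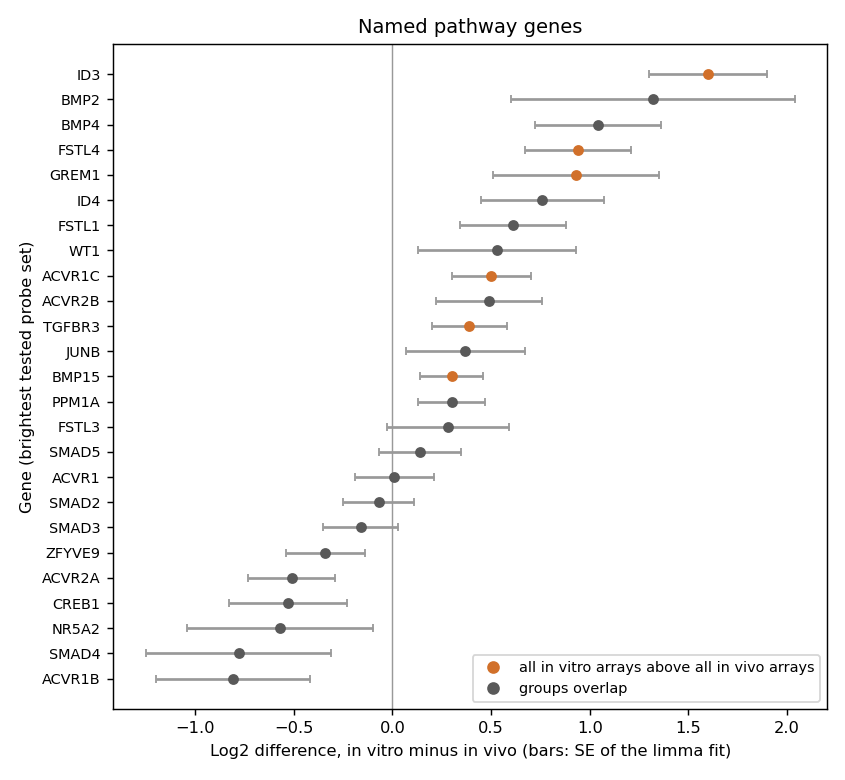
Log2 difference, in vitro minus in vivo, of the 25 named pathway genes that were tested, each at its brightest tested probe set, with the SE of the limma fit as bars. ID3 has the highest value, 1.60, and ACVR1B the lowest, -0.81; orange points are genes whose in vitro arrays all lie above all in vivo arrays.

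Because the members are known from granulosa cells, markers of these cells were read beside them. The marker genes named here were chosen after their values were seen. Of 28 granulosa and cumulus markers, 20 were measured, and between 15 and 18 of these were above background on each array. Their summed signal was 24271 to 28740 on the in vivo arrays and 22663 to 30593 on the in vitro arrays, so the ranges overlapped. Most of this sum came from SERPINE2, VCAN, TIMP1 and VIM, which made up 79.7% to 88.6% of it on each array. The other 16 markers summed to 2799 to 4498 in vivo and 3838 to 5365 in vitro. Of these 16, STAR rose most in mean signal, from 191 ± 98.9 in vivo to 1181 ± 490 in vitro, so this sum leans on STAR. None of the 20 was at or below background on all 8 arrays. Of 18 tested, STAR, which carries cholesterol into mitochondria, rose (limma adjusted p = 0.00783), 0 fell and 17 did not pass. STAR did not pass when in vitro array 1 (limma adjusted p = 0.052) or array 3 (limma adjusted p = 0.054) was left out, or when the fit had no intensity trend (limma adjusted p = 0.15). STAR read 322, 202, 90.6 and 148 in vivo and 1623, 1097, 1478 and 526 in vitro. Over the 18, the log2 difference was above 0 at 8 and below 0 at 10, with a median of -0.12. It was above 0 at 47.9% of the 9560 genes. AREG had the lowest value of the 18, -1.36 ± 0.76 SE. Groups did not overlap at 3 of the 18, which were STAR and HSD3B2 (higher in vitro) and ITIH2 (lower). An unadjusted limma p under 0.05 was reached by 4 of the 18, 3 higher and 1 lower. The shares of all 9560 genes were the 7.38% and 12.0% given above. HSD3B2, a steroid dehydrogenase gene, read 63.5, 113, 1.80 and 45.7 in vivo and 181, 465, 133 and 196 in vitro (log2 difference 2.28 ± 0.60 SE, limma adjusted p = 0.204). EFEMP1 had 1.96 ± 0.54 and passed without in vivo replicate 1 (limma adjusted p = 0.0144), and ITIH2 had -1.20 ± 0.41. CYP19A1, the aromatase gene, read 47.8, 295, 75.8 and 39.7 in vivo and 103, 156, 95.9 and 58.7 in vitro, with only in vivo array 2 above the in vitro arrays. Its log2 difference of 0.22 ± 0.48 became 0.80 without that array and -0.08 without in vivo array 4. HAS2, a cumulus hyaluronan synthase gene, had means of 136 ± 42.8 and 104 ± 36.5. The part of granulosa RNA in the INHBA difference was not tested, and in pooled oocytes a change in adhering cells and a change in RNA per cell cannot be told apart.

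Markers of other cell types were read in the same way. Of the 12 measured for theca, stroma and endothelium, 6 to 9 were above background on each array, CDH5, VWF and PECAM1 on all 8. The summed signal of these 12 was 1106 to 1316 in vivo and 1140 to 1757 in vitro, with CYP17A1 and KDR at or below background on all 8 arrays. Of 7 tested, 0 passed. Groups did not overlap at 3, and 3 had an unadjusted limma p under 0.05, 2 higher and 1 lower. Over all 9560 genes these shares were 7.38% and 12.0%. COL6A1, a collagen gene, read 6.80, 33.2, 33.9 and 31.0 in vivo and 154, 80.4, 80.5 and 100.2 in vitro (log2 difference 1.77 ± 0.38 SE, limma adjusted p = 0.0998). TAGLN, a smooth muscle gene, had 1.82 ± 0.50, also with every in vitro array above every in vivo array. VWF, an endothelial gene, was the other gene without overlap, lower in vitro with -0.41 ± 0.21. The lower gene with an unadjusted limma p under 0.05 was DCN, a stroma marker. It read 115, 48.2, 145 and 34.3 in vivo and 3.1, 48.5, 23.4 and 5.1 in vitro. Its log2 difference was -1.85 ± 0.55 SE, with a limma adjusted p of 0.266. Of 8 measured blood and immune markers, 1 to 5 were above background on each array, with a summed signal of 223 to 298 in vivo and 100 to 188 in vitro. These ranges did not overlap, the in vivo arrays being higher. None of the 4 tested blood and immune genes passed, with 1 log2 difference above 0, 3 below and a median of -0.62. The part of these other cells in the members' levels was not tested. All 12 measured oocyte markers were above background on every array, with a summed signal of 49759 to 68692 in vivo and 45657 to 56831 in vitro. The arrays thus carried the defining transcripts of the labelled cell.

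The genes whose profile over the 8 arrays was most like that of INHBA probe set 1 were STC1, CYP3A5, LARGE2, MPPE1 and BDKRB1. Likeness was the root mean square difference between log2 values, each gene centred on its own mean over the 8 arrays, among 9555 genes. The centring keeps the gap between the groups, so the measure favours genes with a large rise in vitro and says little of likeness within a group. The 5 genes had log2 differences from 2.29 (STC1) to 3.15 (BDKRB1). Other tested probe sets had 1.70 and 1.73 for CYP3A5 and 0.36 for MPPE1. It was 0.60 for STC1, 0.68 for CYP3A5, 0.69 for LARGE2, 0.70 for MPPE1 and 0.72 for BDKRB1. For scale, it was 0.21 for INHBA probe set 2, and its median over the genes was 1.71. CYP3A5 and MPPE1 were at or below background on all in vivo arrays, and LARGE2 on all but 1, so their in vivo profile carries little information. STC1 and BDKRB1 were above background on all 8 arrays. With a pseudocount of 1, 3 of the 5 genes stayed among the nearest 5, and with the median signal of 27.7 as pseudocount 2 did, STC1 and BDKRB1.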

How the data were processed

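RNA of 8 pools of 4 oocytes was amplified in 2 rounds and hybridised to single-colour arrays, per the labels' protocols. The deposited intensity values are linear MAS5 signals, as the submitters' processing notes state without a version. The 2% trimmed mean was 150 on each array, and 49.9% to 60.9% of probe sets lay above background. Of 52865 probe sets, 99 controls were left out. Gene names came from the platform annotation, for 23265 probe sets with 1 usable symbol. Background was the 95th percentile of 59 unspiked controls. Values were taken as log2(signal + 8.2), the pseudocount being the 25th percentile of signals. Probe sets in the upper 50% of mean signal were tested with limma 3.58.1 in R 4.3.3 (lmFit, eBayes with an intensity trend, Benjamini-Hochberg at 0.05). The fit was tested on simulated data with independent noise on each array, which cannot show how it fares with quality differences between arrays. The number of arrays limits precision.

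The members and lists were chosen with earlier results of these data known. Named genes are all members, the 3 of each pathway list with the smallest unadjusted p, any past the threshold, 13 direct partners, and the 5 most like INHBA. Alternatives were other pseudocounts, filters, scalings and variance models, a replicate block, and each array left out. A filter on the mean log2 value and the pseudocounts for the likeness were added after seeing the data. No sequences or coordinates were used here.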

Additional observations from a re-analysis of the deposited data

Results flagged for a closer look

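Of 78 groups of 4 arrays checked, 6 had an array set apart from the other arrays of its group by a gap above Dixon's 95% critical value, where chance flags about 1 group in 20. None of these was at a member probe set. In the in vivo group, FSTL4 was at 712 on replicate 3, with the others at 1689 to 1898. In the in vitro group, ACVR1C was at 505 on replicate 4 (others 439 to 448), PPM1A at 5732 on replicate 1 (others 4578 to 4729) and NR5A2 at 39.7 on replicate 4 (others 92.9 to 107). ID3 was at 237 on in vitro replicate 3 (others 265 to 268), and MPPE1 at 150 on in vitro replicate 2 (others 91.7 to 97.3).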

How the results depend on the processing

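All 96 alternative values of the 8 member differences (other pseudocounts, scalings, an array left out) moved by less than the SD between replicates. Leaving out 1 of 4 arrays cannot move a group mean by as much as that SD, so those values were bound to stay inside it. The sign still changed with an array left out for AMH (-0.50 to 0.31) and FST probe set 3 (-0.71 to 0.08). The number of probe sets past the adjusted threshold was 39, and it became 88 with array weights and 7 without the intensity trend. With 1 array left out it ran from 19 to 96: 19, 23 and 21 without in vitro replicates 1, 2 and 3, and 72 and 96 without in vivo replicates 1 and 4. Without in vivo replicate 4, 44.8% of calls were higher in vitro, against 66.7% with all arrays. The number of pathway genes past the threshold was 0, and it became 1, ID3, with array weights, median centring, no filter, the upper-quarter filter, quantile normalization or the median pseudocount. It ran from 0 to 1 with an array left out, and was 1 without in vivo replicate 1. Of 600 alternative values of 34 named pathway and marker genes, 577 kept direction and side of the threshold, 10 passed it (7 for ID3, the others for HSD3B2 and EFEMP1), 3 lost it (STAR) and 10 changed sign. The sign changed for CYP19A1 (-0.17 with array weights, -0.08 to 0.80 with an array left out, with -0.01 and -0.08 without in vivo replicates 1 and 4), ACVR1 (-0.01 with array weights, -0.04 with median centring, -0.10 to 0.12 with an array left out), FSTL3 (-0.04 without in vivo replicate 2, up to 0.46 without in vivo replicate 3) and SMAD2 (0.10 without in vivo replicate 4, down to -0.17 without in vivo replicate 1). The causes were not tested. The profile genes nearest to INHBA shared 3 and 2 members with the reported 5 at pseudocounts of 1 and 27.7. Arrays with the same replicate number did not deviate together (correlations of -0.045 to 0.011), and the replicate block gave 44 probe sets and 0 pathway genes. Under the block HSD3B2 and EFEMP1 passed (limma adjusted p = 0.0298 and 0.0383).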
